A study of Homo sapiens with 17 samples.

Results

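The IL6 family comprises cytokines that signal through a shared receptor chain, gp130, encoded by IL6ST. Here 10 of its genes were followed through oncogene-induced senescence and SMARCA4 knockdown: the ligands IL6, LIF, IL11 and CLCF1, the receptor chains IL6R, IL6ST, OSMR and LIFR, the feedback inhibitor SOCS3 and the transcription factor STAT3. They were picked by symbol from the 62754 gene rows of the count tables, each symbol matched 1 Ensembl identifier, and all 10 passed the filter on low counts that left 19473 genes for testing.

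Ligands of this family bind a chain of their own, such as IL6R for IL6, or pairs such as gp130 with LIFR or OSMR, and the assembled receptor activates JAK kinases that phosphorylate STAT3. STAT3 enters the nucleus and induces genes that include SOCS3, which binds gp130 and JAKs and shuts the signal down. IL6 is among the best known proteins that senescent fibroblasts secrete, as part of the senescence-associated secretory phenotype (SASP).

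All 17 libraries came from IMR90 ER:RAS cells, human lung fibroblasts with a retroviral ER:RAS construct, in which an activated RAS is held inactive by its oestrogen receptor part until 4-hydroxytamoxifen (4OHT) is added. The controls carried the construct too. Cells were reverse transfected with a non-targeting siRNA (siNT) or with an siRNA to SMARCA4 (siSMARCA4), the motor subunit of many SWI/SNF chromatin remodellers, on the day before induction, and RNA was taken 7 days after it. The groups were DMSO siNT (n = 5, not induced), 4OHT siNT (n = 6, senescent) and 4OHT siSMARCA4 (n = 6, senescent with knockdown), with no library of DMSO and siSMARCA4 together. The labels number the siRNAs 2 and 4 and end each replicate tag in V or VM, whose meaning they do not give. All 6 libraries of 4OHT siNT end in VM, against 3 in each of the other groups. The labels do not say whether libraries came from separate cultures, so p-values measure the spread between these libraries, and in such bulk samples fewer expressing cells and less RNA per cell cannot be told apart.

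Library totals ranged from 39.11 to 68.98 M counts (M, 1e6). SMARCA4 itself lay at 253 to 286 CPM (normalised counts per 1e6 counts of a library) in 4OHT siNT and at 68.4 to 127 CPM in 4OHT siSMARCA4, a 3.04-fold lower level with no overlap (adjusted p = 5.14e-07, edgeR quasi-likelihood test with Benjamini-Hochberg adjustment over all genes, which is meant by adjusted p from here on). The summed level of 8 fibroblast markers was 22851 to 27447 CPM in DMSO siNT, 13354 to 17455 in 4OHT siNT and 7496 to 10778 in 4OHT siSMARCA4, so it moved with both comparisons. The 5 immune markers, among them the leukocyte gene PTPRC, summed to at most 0.347 CPM in any library, and 4 endothelial markers to at most 13.7 CPM. The 4 epithelial markers summed to 31.0 to 47.3 CPM in DMSO siNT, nearly all of it KRT19, to 1.13 to 2.64 CPM in 4OHT siNT and to 0.543 to 1.11 CPM in 4OHT siSMARCA4, and so moved with both comparisons, without overlap. KRT5 was at 0 in every library. Counts on sparse repeat loci at least 50000 bp from any gene were 55.1 ± 10.97 CPM (SD, n = 6) in 4OHT siNT and 113 ± 48.1 CPM (SD, n = 6) in 4OHT siSMARCA4, and moved with the knockdown comparison. What these markers and repeats contribute to the results was not tested. Fits with the sparse repeats as a covariate are given below. Their levels, 35.9 to 68.9 CPM in 4OHT siNT and 70.6 to 198 CPM in 4OHT siSMARCA4, did not overlap. Such a fit therefore cannot separate them from the knockdown.

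The promoters of 4 members that the results turn on are shown first: IL6 and IL11 as induced ligands, and OSMR and LIFR as receptor chains that are coded near each other on chromosome 5. Each line is the 250 bases before a RefSeq start (GRCh38.p14), read 5′ to 3′ on the gene's strand, and capitals mark every match, on either strand, to 6 motifs: TGANTCA (AP-1), GGGANTTTC (NF-kB), TTGCNNAA (C/EBP), TTCNNNGAA (STAT), TGACGTCA (CRE) and the TATA box in the form TATAAA.
IL6, chr7:22726950-22727199, plus strand: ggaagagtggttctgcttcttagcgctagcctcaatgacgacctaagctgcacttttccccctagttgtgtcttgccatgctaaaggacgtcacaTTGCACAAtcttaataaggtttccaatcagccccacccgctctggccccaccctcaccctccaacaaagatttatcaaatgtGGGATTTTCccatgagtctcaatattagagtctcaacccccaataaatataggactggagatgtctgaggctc
IL11, chr19:55370464-55370713, minus strand: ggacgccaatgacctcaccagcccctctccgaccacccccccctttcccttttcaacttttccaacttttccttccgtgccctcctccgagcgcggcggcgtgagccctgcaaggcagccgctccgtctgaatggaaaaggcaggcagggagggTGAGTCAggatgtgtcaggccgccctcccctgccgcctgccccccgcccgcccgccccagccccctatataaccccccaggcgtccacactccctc
OSMR, chr5:38845762-38846011, plus strand: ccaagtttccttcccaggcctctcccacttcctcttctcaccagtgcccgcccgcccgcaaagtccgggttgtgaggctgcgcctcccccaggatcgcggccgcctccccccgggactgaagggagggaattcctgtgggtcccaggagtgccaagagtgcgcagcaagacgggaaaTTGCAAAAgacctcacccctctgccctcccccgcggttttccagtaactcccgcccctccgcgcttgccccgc
LIFR, chr5:38556647-38556896, minus strand: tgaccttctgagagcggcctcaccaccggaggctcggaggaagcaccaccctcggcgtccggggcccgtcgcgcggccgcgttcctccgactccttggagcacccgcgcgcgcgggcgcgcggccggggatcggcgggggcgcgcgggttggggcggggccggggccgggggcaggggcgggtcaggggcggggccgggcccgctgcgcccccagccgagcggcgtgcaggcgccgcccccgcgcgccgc

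The IL6 window held an NF-kB match, GGGATTTTC, that began 73 bases before the start, and a C/EBP match, TTGCACAA, that began 155 bases before it. The IL11 window held 1 AP-1 match, TGAGTCA, beginning 96 bases before the start, and the OSMR window 1 C/EBP match, TTGCAAAA, beginning 73 bases before it. The LIFR window shown held none of the 6, while the windows of its other RefSeq starts, at chr5:38557468-38557717 and chr5:38595406-38595655, each held 1 STAT match, the first also a C/EBP match and overlapping TATA box matches. Of 35116 promoter windows of the same length, 1.12% held the NF-kB motif, 6.57% the AP-1 motif, 9.05% the C/EBP motif, 6.57% the STAT motif, 10.7% the TATA box and 1.65% the CRE. The table held entries for 8 of the 10 members and none for LIF and CLCF1. The windows of IL6R, IL6ST, SOCS3 and STAT3 held no match. RefSeq starts differ from the outermost starts of the GENCODE genes given below, so the IL6 and LIFR windows lie inside the gene spans and the OSMR window partly so. A match describes these letters only and is not evidence of binding.

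In senescent cells the ligands IL6, LIF and IL11 rose most among the members. They were all several-fold higher in 4OHT siNT than in DMSO siNT with no overlap between the libraries. The ligand CLCF1 was modestly higher, and of the receptor chains OSMR rose while IL6R and LIFR fell. In that comparison 9 of the 10 members were called at an adjusted p under 0.05, 7 higher and 2 lower, where 54.4% of all genes tested were called, 27.0% higher and 27.4% lower. The libraries did not overlap for 7 members, against 39.6% of all genes. The median log2 fold change was 0.73 over the members and 0.0038 over all genes.

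IL6 (ENSG00000136244, chr7:22725884-22732002, plus strand), which codes for the cytokine that names the family, was low in cells that had not been induced. It measured 7.45, 5.35, 4.91, 3.29 and 2.99 CPM in the 5 DMSO siNT libraries. In 4OHT siNT the lowest library was at 39.95, the median at 49.4 and the highest at 80.0 CPM. Every senescent library was thus well above every control. The log2 fold change was 3.44 ± 0.28 (SE), a 10.9-fold higher level (adjusted p = 5.46e-09). Its size varied with the libraries and the design, at 2.95 with siRNA number 2 alone, 4.15 with number 4 alone and 4.01 with the tag as a replicate block, all called.

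LIF (ENSG00000128342, chr22:30240453-30246759, minus strand), a cytokine that signals through gp130 and LIFR, started from a higher base. The DMSO siNT libraries were at 151, 114, 73.7, 106 and 87.95 CPM. The 4OHT siNT libraries had a lowest value of 389, a median of 528 and a highest value of 851 CPM. They were separated from the controls, and they also fell into separate sets by siRNA number, described below. The difference was 2.39 ± 0.24 on the log2 scale, or 5.23-fold (adjusted p = 1.32e-07).

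IL11 (ENSG00000095752, chr19:55364382-55370463, minus strand), a cytokine of fibroblasts that uses IL11RA and gp130, gave 15.7, 21.2, 44.6, 21.6 and 30.5 CPM in DMSO siNT. In 4OHT siNT it ranged from 127 through a median of 137 to 220 CPM. The groups again did not overlap, and library 4-2VM, the highest, stood apart from the other 5, which lay between 127 and 147 CPM. This was a 5.60-fold higher level, 2.48 ± 0.29 on the log2 scale (adjusted p = 5.77e-07).

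CLCF1 (ENSG00000175505, chr11:67364168-67374177, minus strand), a cytokine that acts through the CNTF receptor, changed least among the ligands. It lay at 9.02 to 12.1 CPM in DMSO siNT and at 16.4 to 19.5 CPM in 4OHT siNT, a log2 fold change of 0.72 ± 0.09 (adjusted p = 1.88e-06). The gene overlaps another protein-coding gene on the same strand, ENSG00000256514, whose level rose from 18.6 ± 3.17 (SD, n = 5) to 32.6 ± 2.15 CPM (SD, n = 6) in the same comparison, so how the counting divided reads between them makes the CLCF1 value uncertain.

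**Figure D1:**
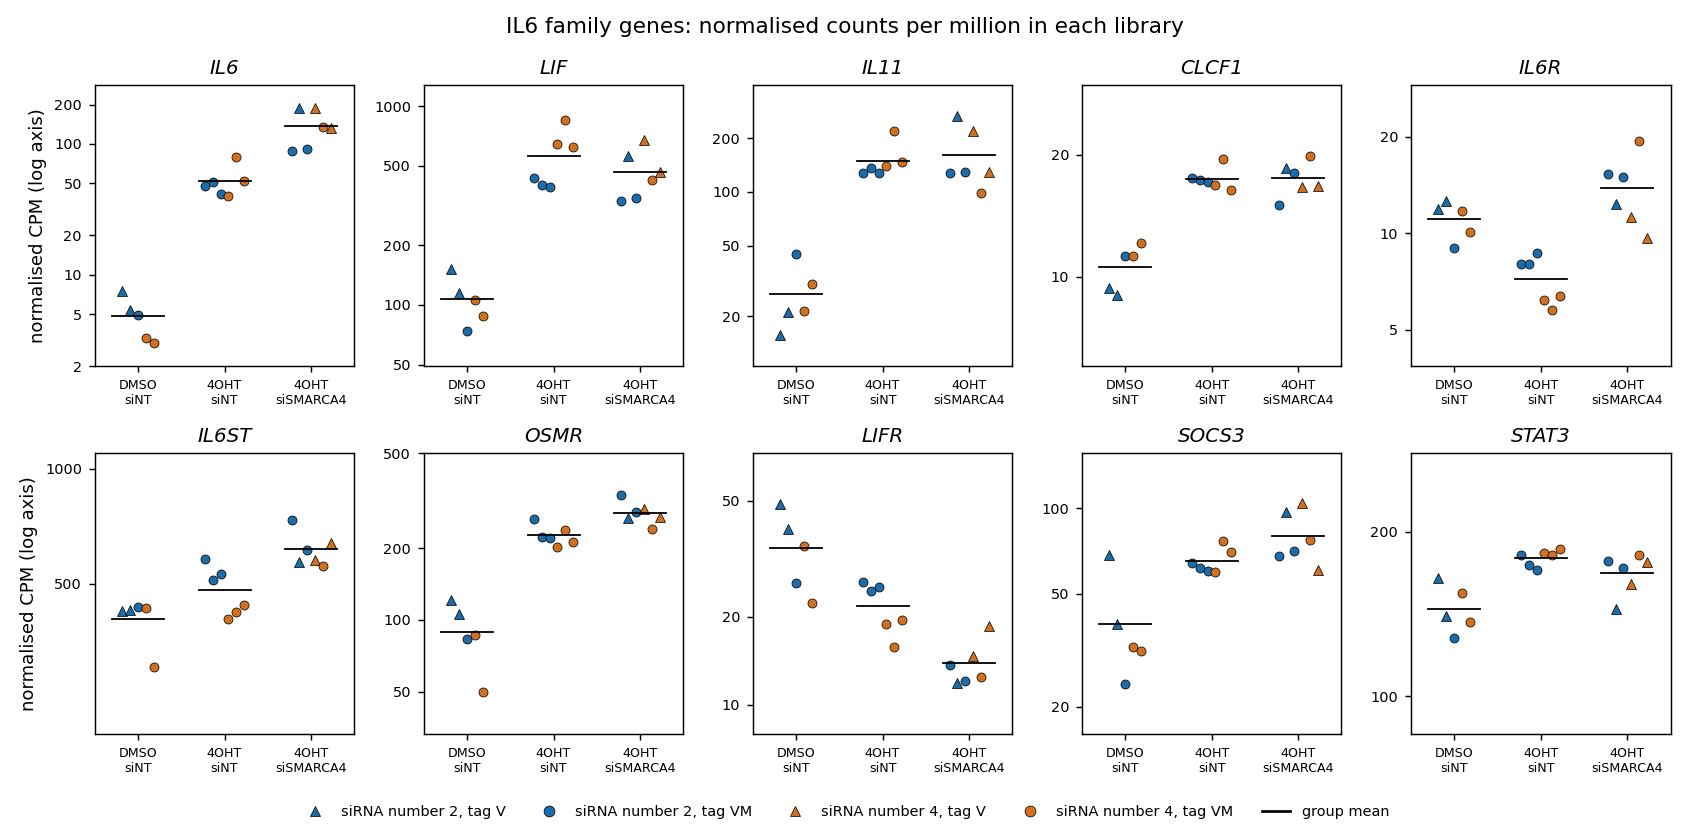
Normalised CPM of the 10 genes in each library on a log axis, by group, with colour for the siRNA number, shape for the tag suffix and a line at the group mean. IL6 steps up in both comparisons, from at most 7.45 CPM in DMSO siNT to at least 39.95 in 4OHT siNT and at least 88.5 in 4OHT siSMARCA4, while LIFR steps down.

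Among the receptor chains OSMR (ENSG00000145623, chr5:38845858-38945596, plus strand), the oncostatin M receptor chain that pairs with gp130, rose. Its DMSO siNT libraries were at 121, 106, 82.8, 86.5 and 49.7 CPM. In 4OHT siNT it was lowest at 202, with a median of 221 and a highest value of 266 CPM. The groups did not overlap, and library 4-3VM of DMSO siNT lay lowest. This amounted to 2.54-fold, or 1.35 ± 0.16 on the log2 scale (adjusted p = 8.98e-07).

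LIFR (ENSG00000113594, chr5:38474668-38608354, minus strand), the chain that LIF and several other ligands need next to gp130, went the other way. It gave 48.5, 39.9, 26.1, 35.0 and 22.3 CPM in DMSO siNT, and from 15.7 through a median of 22.1 to 26.3 CPM in 4OHT siNT. The ranges overlapped at their edges: 2 controls lay among or below the highest senescent libraries. The level fell by 0.66 ± 0.18 on the log2 scale (adjusted p = 0.00449). With VM libraries alone, which leaves out the 2 highest controls, the log2 fold change was -0.38 and not called (adjusted p = 0.072), nor was it with the replicate tag as a block (-0.42, adjusted p = 0.0863).

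IL6R (ENSG00000160712, chr1:154405193-154469450, plus strand), the chain that binds IL6, was low in all groups. It measured 11.8, 12.6, 8.99, 11.7 and 10.1 CPM in DMSO siNT and 5.78, 7.19 and 8.69 CPM as lowest, median and highest in 4OHT siNT. No senescent library reached the lowest control. The level fell by 0.62 ± 0.16 on the log2 scale (adjusted p = 0.0026).

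IL6ST (ENSG00000134352, chr5:55935095-55995022, minus strand), gp130 itself, was abundant throughout and was the member that was not called. It lay at 424, 427, 433, 430 and 301 CPM in DMSO siNT and between 403 and 579 CPM, with a median of 474, in 4OHT siNT. The groups overlapped, and the lowest control, library 4-3VM, stood far from the other 4. The log2 fold change was 0.25, with a 95% interval from 0.016 to 0.49 (adjusted p = 0.0662). It was called without 4OHT siNT library 4-1VM or 4-2VM (0.30 and 0.29, adjusted p = 0.0361 and 0.0462), with the siRNA number as a covariate (0.27, adjusted p = 0.0191) and with number 2 alone (0.302, adjusted p = 0.0242).

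SOCS3 (ENSG00000184557, chr17:78356778-78360077, minus strand), the feedback inhibitor, rose with overlap. Its controls were at 68.2, 39.3, 24.03, 32.3 and 31.5 CPM, and 4OHT siNT ran from 59.7 through 62.8 to 76.5 CPM. The first control, library 2-1V, lay among the senescent values. The log2 fold change was 0.74 ± 0.20 (adjusted p = 0.00474), and with siRNA number 2 alone it was 0.46 (adjusted p = 0.223). Over 24 alternatives it ran from 0.46 to 1.21 and was called in 23.

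STAT3 (ENSG00000168610, chr17:42313324-42388540, minus strand), the transcription factor downstream of gp130, rose by a small and even step. It ranged from 128 to 164 CPM in DMSO siNT and from 170 to 186 CPM in 4OHT siNT without overlap, a log2 fold change of 0.31 ± 0.07 (adjusted p = 0.00156). It was not called with the libraries of siRNA number 2 alone (0.25, adjusted p = 0.0831) or number 4 alone (0.29, adjusted p = 0.073).

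**Figure D2:**
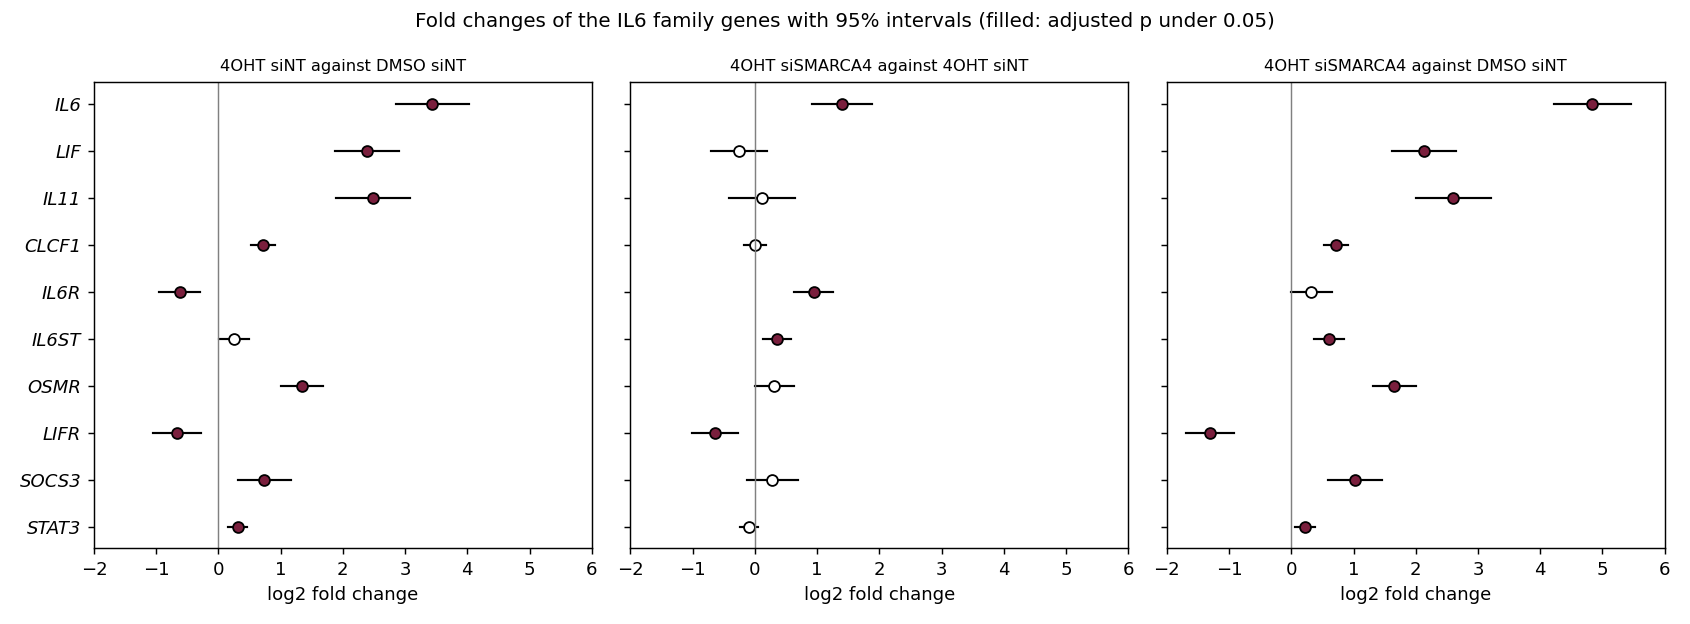
Log2 fold changes (points) with 95% intervals (lines) of the 10 genes in the 3 comparisons, filled where the adjusted p was under 0.05. In senescence the ligands and OSMR lie to the right and IL6R and LIFR to the left, and after knockdown 4 genes are filled: IL6, IL6R and IL6ST to the right and LIFR to the left.

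Knockdown of SMARCA4 in senescent cells gave a different picture: IL6, IL6R and IL6ST were higher and LIFR lower, and LIF, IL11, CLCF1, OSMR, SOCS3 and STAT3 were not called. Of the 10 members 4 were called in 4OHT siSMARCA4 against 4OHT siNT, 3 higher (IL6, IL6R and IL6ST) and 1 lower (LIFR), where 24.2% of all genes were called, 10.4% higher and 13.8% lower. The libraries did not overlap for IL6 and IL6R, 2 members, against 12.0% of all genes. The median log2 fold change was 0.20 over the members and -0.024 over all genes.

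IL6 in 4OHT siSMARCA4 was lowest at 88.5, with a median of 134 and a highest value of 188 CPM. All 6 libraries were above the highest library of 4OHT siNT, at 80.0 CPM. The log2 fold change was 1.40 ± 0.23, or 2.64-fold (adjusted p = 0.000372). The 3 V libraries averaged 170 CPM and the 3 VM libraries 105 CPM, and since all of 4OHT siNT is VM, the fold change was smaller with VM libraries alone (1.03, adjusted p = 0.00258) and with the suffix as a covariate (0.99, adjusted p = 0.00114). With the sparse repeats as a covariate it was 1.82 (adjusted p = 0.00105).

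IL6R, which had fallen in senescence, lay at 9.64, 13.7 and 19.3 CPM as lowest, median and highest. Each of these libraries was above the highest 4OHT siNT library, and the DMSO siNT range lay largely within theirs. IL6R was thus 1.92-fold higher, at a log2 fold change of 0.94 ± 0.15 (adjusted p = 0.000296). It was 1.22 with VM libraries alone (adjusted p = 6.41e-05) and 0.85 with the sparse repeats as a covariate (adjusted p = 0.0133).

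IL6ST ranged from 554 through a median of 595 to 734 CPM. Its lowest library was below the 579 CPM of the highest 4OHT siNT library, so the groups touched. The log2 fold change was 0.36 ± 0.11 (adjusted p = 0.0223). The call was lost without any of the 4OHT siNT libraries 4-1VM, 4-2VM or 4-3VM or the 4OHT siSMARCA4 library 2-1VM (0.30 to 0.33, adjusted p = 0.0511 to 0.0612), and with the sparse repeats as a covariate (0.39, adjusted p = 0.108). It was also lost with the tag as a replicate block (0.37, adjusted p = 0.0665) and in separate fits of siRNA number 2 (0.28, adjusted p = 0.0622) and number 4 (0.52, adjusted p = 0.0533), so it held in 17 of 25 alternatives.

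LIFR fell further, to between 11.9 and 18.6 CPM with a median of 13.1. The highest knockdown library, 4-3V, reached into the 4OHT siNT range, which starts at 15.7 CPM. The level fell by 0.64 ± 0.18 on the log2 scale, 1.56-fold (adjusted p = 0.0127). With the sparse repeats as a covariate the log2 fold change was -0.52 and no longer called (adjusted p = 0.173), as in a separate fit of siRNA number 4 (-0.21, adjusted p = 0.542).

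For the members that were not called the intervals bound the change. OSMR ran from 239 to 334 CPM after knockdown, against 202 to 266 before it, with a log2 fold change of 0.31 and a 95% interval from -0.00062 to 0.62 (adjusted p = 0.139), and in a fit of these groups alone it was called (adjusted p = 0.0154). LIF ran from 332 to 677 CPM, with a log2 fold change of -0.25 and an interval from -0.71 to 0.20. With the suffix as a covariate LIF was at -0.59 (adjusted p = 0.0367). IL11 ran from 98.5 to 266 CPM, and its interval, from -0.41 to 0.64, allows changes in either direction. CLCF1, at 15.1 to 19.9 CPM, was bounded within -0.18 and 0.18. SOCS3 ran from 60.7 to 104 CPM with an interval from -0.12 to 0.69, and STAT3 from 144 to 181 CPM with an interval from -0.24 to 0.058.

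The knockdown effect was also taken within each siRNA number, 3 libraries against 3, in a fit of all 17 libraries. The labels do not say that siNT and siSMARCA4 libraries of the same number belong together, and these effects rest on that matching. IL6 gave 1.40 with number 2 and 1.40 with number 4 (adjusted p = 0.00307 and 0.0046). IL6R gave 0.79 and 1.13 (adjusted p = 0.0131 and 0.00258), and IL6ST 0.24 and 0.49 (adjusted p = 0.18 and 0.0137), a call for number 4 that was lost in the separate fit given above. LIFR gave -1.02 with number 2 (adjusted p = 0.00309) and -0.24 with number 4 (adjusted p = 0.452). In mean it was at 25.4 and 18.1 CPM in 4OHT siNT with numbers 2 and 4, and at 12.5 and 15.3 CPM in 4OHT siSMARCA4. The difference between the numbers, tested as an interaction, was -0.77 for LIFR (unadjusted p = 0.0172, adjusted p = 0.208), and it was called for 0 of the 10 members at an adjusted p under 0.05 in the edgeR test and for 1 at an unadjusted p under 0.05, with 1.06% of all genes called.

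**Figure D3:**
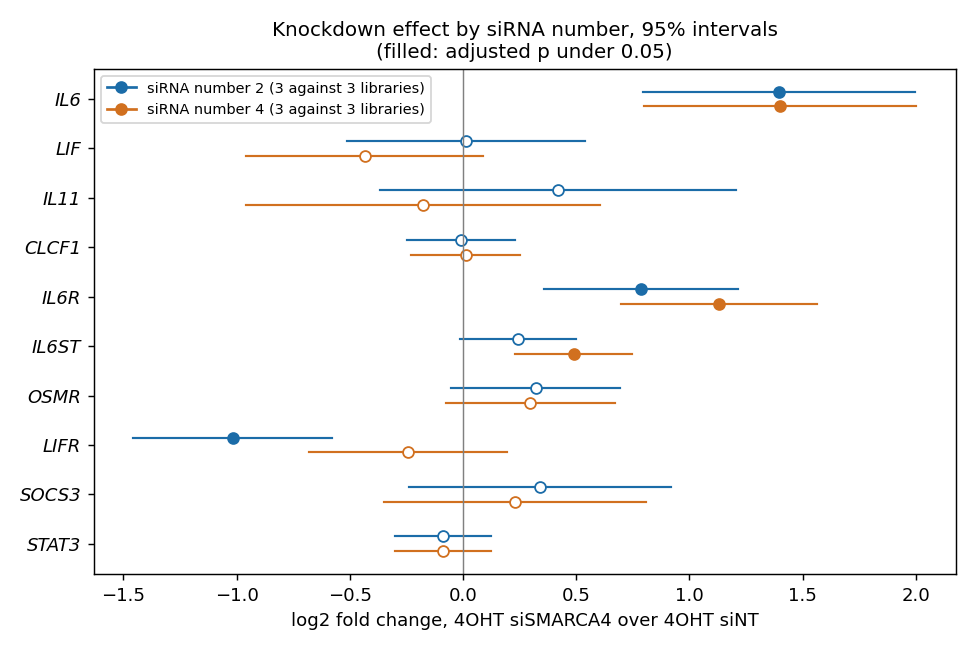
Log2 fold change of 4OHT siSMARCA4 over 4OHT siNT for each gene within siRNA number 2 and within number 4, with 95% intervals, filled where the adjusted p was under 0.05. IL6 is at 1.40 for both numbers, and LIFR is at -1.02 and -0.24. The difference between the numbers for LIFR, tested as an interaction, was -0.77, with a 95% interval from -1.39 to -0.157. It was not called (edgeR test, unadjusted p = 0.0172, adjusted p = 0.208).

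The 4OHT siNT libraries themselves lay in separate ranges by siRNA number for several members, though no member was called. LIF was at 389 to 437 CPM with number 2 and at 620 to 851 CPM with number 4. LIFR ran the other way, from 24.6 to 26.3 against 15.7 to 19.5 CPM, as did IL6R (7.998 to 8.69 against 5.78 to 6.38 CPM) and IL6ST (510 to 579 against 403 to 439 CPM). In all, 6 of the 10 members did not overlap between the numbers, the others being IL11 and STAT3, but 36.7% of all genes did not overlap in this comparison of 3 against 3, and 0 members were called (adjusted p from 0.0775 to 0.937 in the edgeR test, 3 members at an unadjusted p under 0.05), with 4.68% of all genes called.

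Set against DMSO siNT, the 4OHT siSMARCA4 libraries gave 9 called members of 10, all but IL6R, with 55.1% of all genes called. This comparison shares its libraries with both others, so its values are only placed beside theirs. IL6 was 28.6-fold higher than in DMSO siNT (log2 4.84 ± 0.29, adjusted p = 9.26e-11), and LIFR was 2.47-fold lower (log2 -1.31 ± 0.18, adjusted p = 6.23e-06). OSMR was at 1.66 ± 0.16, SOCS3 at 1.02 ± 0.21 and IL6ST at 0.61 ± 0.11, all called. IL6R was at 0.32, with an interval from -0.0094 to 0.65 (adjusted p = 0.0931), and it passed the threshold with VM libraries alone (0.67, adjusted p = 0.00598) and without 4OHT siSMARCA4 library 4-3V (0.41, adjusted p = 0.0267). STAT3 was at 0.22 ± 0.074 (adjusted p = 0.0166) and was called in 18 of 24 alternatives. Its call was lost without DMSO siNT library 2-2V or 2-2VM, without a filter on low counts, with these groups alone, and with siRNA number 2 or 4 alone (0.15 to 0.24, adjusted p = 0.059 to 0.153). With siRNA number 4 alone IL6 was at 5.59, and with VM libraries alone IL11 was at 1.88 against 2.60 ± 0.29 in the full fit, all called.

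Levels of different genes were compared as TPM, counts divided by exon length and scaled to 1e6 per library. The length was that of all annotated exons merged, 4321 bases for IL6, 3871 for LIF, 2678 for IL11 and 1836 for CLCF1. A gene whose main transcript is much shorter than this is understated. Ranks, shares and ratios between genes therefore depend on this length, and other lengths were not tested. On this scale LIF was the most abundant of the 4 ligands in every group. It held 61.4 ± 12.1% (SD, n = 5) of their summed TPM in DMSO siNT, 64.3 ± 4.55% (SD, n = 6) in 4OHT siNT and 54.5 ± 3.69% (SD, n = 6) in 4OHT siSMARCA4. The share of IL6 was 2.46 ± 0.71%, 5.53 ± 0.97% and 14.2 ± 1.47% in the same order, and its ranges of 1.67 to 3.33%, 3.89 to 6.76% and 12.6 to 16.5% did not overlap. In TPM, LIF stood 26.4 ± 7.82 times above IL6 in DMSO siNT, 12.1 ± 3.3 times in 4OHT siNT and 3.86 ± 0.36 times in 4OHT siSMARCA4. IL11 was the next ligand after LIF in mean TPM in all groups, at 37.9 ± 16.6, 184 ± 41.4 and 194 ± 79.1 TPM. Libraries of LIF and IL11 overlapped in 4OHT siSMARCA4 (284 to 604 and 114 to 303 TPM) and in neither other group. IL6 was the lowest ligand in DMSO siNT, at 4.28 ± 1.74 TPM against 21.9 ± 2.00 for CLCF1, and above CLCF1 in mean in 4OHT siNT, at 39.9 ± 10.9 against 31.5 ± 2.17 TPM, with overlapping libraries.

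On the same scale the receptor chains formed an abundant pair, IL6ST and OSMR, and a scarce pair, LIFR and IL6R. IL6ST was at 128 ± 24.7, 132 ± 22.9 and 163 ± 22.7 TPM in DMSO siNT, 4OHT siNT and 4OHT siSMARCA4, and OSMR at 47.96 ± 16.3, 105 ± 13.4 and 126 ± 19.7 TPM. LIFR was at 10.9 ± 3.68, 5.94 ± 1.29 and 3.66 ± 0.67 TPM, and IL6R at 6.03 ± 1.02, 3.41 ± 0.63 and 6.32 ± 1.57 TPM. In mean, LIFR was therefore above IL6R in the first and second of these groups and below it in the third. OSMR stood 4.41 ± 0.59 times above LIFR in DMSO siNT, 18.2 ± 3.92 times in 4OHT siNT and 35.1 ± 6.16 times in 4OHT siSMARCA4. The ranges of that ratio, 3.77 to 5.37, 14.8 to 25.7 and 24.6 to 41.3, separated the controls from the rest and touched between the senescent groups. IL6ST stood 21.4 ± 3.96, 39.0 ± 2.82 and 27.2 ± 7.17 times above IL6R.

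**Figure D4:**
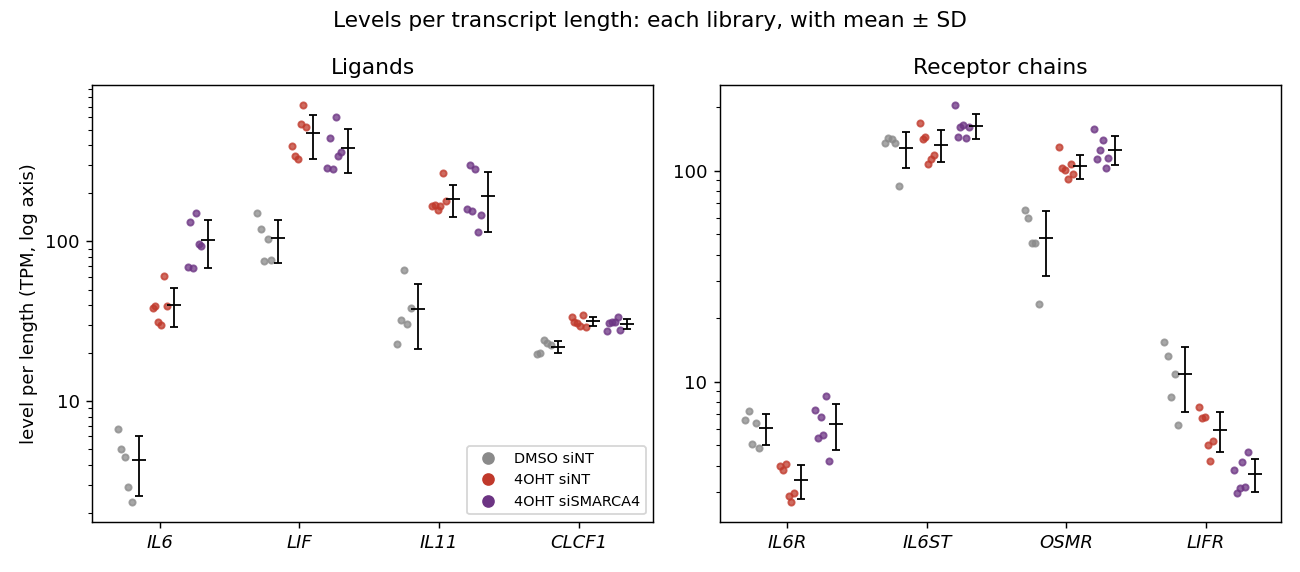
TPM of the ligands (left) and receptor chains (right) on a log axis, with a point per library in 3 colours for the groups and the mean ± SD beside them. LIF is the highest ligand in every group while IL6 climbs from 4.28 to 102 TPM in mean, and OSMR and LIFR move apart.

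Counts on repeat loci inside introns of the members, which lie outside their exons, were compared with exact 2-sided permutation tests of the mean log2 CPM (here of the library total), adjusted over 21 tests (7 members with such counts, 3 comparisons). The loci were chosen by position, and their strand was not matched to that of the gene. Their counts can thus hold transcription of either strand and reads shared with other copies of a repeat. IL6, CLCF1 and SOCS3 had none. OSMR carried most of these counts, 2405 in all, followed by STAT3 with 818 and IL11 with 704, while LIF had 149 at 1 locus. On OSMR loci the level was 1.09 ± 0.89 CPM in DMSO siNT, 1.85 ± 0.26 in 4OHT siNT and 4.65 ± 1.22 CPM in 4OHT siSMARCA4. The knockdown libraries, at 3.16 to 6.54 CPM, were all above the other senescent ones, at 1.48 to 2.26 CPM, and the log2 difference of 1.30 passed the test (p = 0.0022, the smallest these exact permutations can give, adjusted p = 0.0114). The exon counts of OSMR had not passed theirs. RICTOR, which overlaps OSMR on the opposite strand, rose from 31.6 ± 3.94 to 42.9 ± 4.93 CPM in the same comparison (log2 0.44, adjusted p = 0.00428), with a stranded kit counted by strand. Repeat loci that overlap the annotated span of any other gene on either strand, RICTOR included, had been left out of each member's counts. Whether transcription of RICTOR contributed to the remaining OSMR loci was not tested.

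On the other receptor chains the intronic repeat counts moved with the exon counts after knockdown, at far lower levels. IL6R loci were at 0.0841 ± 0.064 CPM in 4OHT siNT and 0.253 ± 0.075 in 4OHT siSMARCA4 (log2 1.72, exact permutation adjusted p = 0.0227), from 26 and 84 counts. IL6ST loci were at 0.148 ± 0.084 and 0.463 ± 0.159 CPM (log2 1.73, adjusted p = 0.0114 by the exact permutation test). LIFR loci fell from 0.133 ± 0.038 to 0.0597 ± 0.038 CPM (log2 -1.14, adjusted p = 0.026 by the exact permutation test), from 42 and 19 counts. The values beside them are those of all intronic repeat loci, 7571 ± 435 CPM in 4OHT siNT and 9656 ± 902 CPM in 4OHT siSMARCA4, a log2 difference of 0.35 (exact permutation p = 0.0043). The sparse repeat loci far from genes rose more, from 55.1 ± 10.97 to 113 ± 48.1 CPM in the same groups. In senescence against DMSO siNT, IL11 loci passed alone, at 0.317 ± 0.205 against 0.956 ± 0.139 CPM (log2 1.82, exact permutation adjusted p = 0.0114). After knockdown the LIFR call was lost without 4OHT siNT library 2-1VM or 4-3VM, or without 4OHT siSMARCA4 library 2-1VM, 2-3V, 2-3VM or 4-2V, and the IL6R call without 4OHT siSMARCA4 library 2-3V, 2-3VM or 4-2V (exact permutation adjusted p = 0.0505 to 0.0606).

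Outside the 10 members, few ligands of the family were measured. Of 7 others, OSM, IL27 and IL31 had too few counts to test (93, 1 and 1 over all 17 libraries), which includes the ligand that OSMR is named for. Of the 4 tested, CTF1, cardiotrophin, fell by 0.88 ± 0.17 in senescence (adjusted p = 0.000275) and CNTF rose by 0.68 ± 0.28 (adjusted p = 0.0488) on the log2 scale, and none was called after knockdown. CNTF was low, at 0.431 ± 0.16 CPM (SD) in DMSO siNT and 0.685 ± 0.203 CPM (SD) in 4OHT siNT. Of the 3 other receptor chains tested, IL31RA, which pairs with OSMR for IL31, rose from 2.18 ± 0.55 to 12.4 ± 1.13 CPM (log2 2.51, adjusted p = 2.88e-09). IL27RA rose by 0.91 ± 0.099, and IL11RA, the chain for IL11, fell by 1.28 ± 0.13 (adjusted p = 1.45e-07), opposite in direction to its ligand. None of these 3 was called after knockdown, and CNTFR, with 25 counts in all, was not tested. Of the proteases that shed IL6R, ADAM10 fell by 0.41 ± 0.11 in senescence (adjusted p = 0.00446) and ADAM17 was not called, and neither was called after knockdown. Beside these counts, 54.4% of all genes were called in senescence and 24.2% after knockdown.

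Of 14 kinases, STATs and adaptors, 4 rose and 2 fell in senescence, where 27.0% of all genes rose and 27.4% fell, with a median log2 fold change of 0.20 against 0.0038 over all genes. The largest rises were 0.88 ± 0.27 for STAT4, 0.63 ± 0.10 for SHC1 and 0.44 ± 0.061 for GRB2, and STAT5A and GAB1 fell by 0.79 ± 0.27 and 0.68 ± 0.14. STAT4 was low, at 0.604 ± 0.142 CPM (SD) in DMSO siNT and 1.11 ± 0.268 CPM (SD) in 4OHT siNT. After knockdown 0 rose and 4 fell, where 10.4% of all genes rose and 13.8% fell, with a median of -0.27 against -0.024 over all genes. JAK3, at 1.18 ± 0.21 CPM before, fell by 1.74 ± 0.36 and STAT6 by 0.73 ± 0.15.

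Of 13 restraints tested other than SOCS3, 7 fell and 4 rose in senescence, beside 27.4% and 27.0% of all genes, with a median of -0.27. SOCS1 fell by 1.87 ± 0.24 (adjusted p = 1.97e-06), SOCS5 from 108 ± 9.46 to 39.3 ± 6.96 CPM (log2 -1.46, adjusted p = 1.61e-08) and SOCS2 by 1.05 ± 0.19 (adjusted p = 0.000114). PIAS4, PTPN1 and SOCS7 rose, by 0.86 ± 0.083, 0.65 ± 0.07 and 0.52 ± 0.098. After knockdown SOCS6 rose by 0.37 ± 0.07 and SOCS7 fell by 0.32 ± 0.093, and the other 11 were not called, beside 10.4% of all genes higher and 13.8% lower.

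Of 30 genes known to respond to STAT3 or IL6, many of them also to other factors, 20 were tested. In senescence 14 rose and 1 fell, beside 27.0% and 27.4% of all genes, with a median of 0.71 against 0.0038 over all genes. The largest rises were in ICAM1, an adhesion molecule (log2 4.88 ± 0.42, from 18.7 ± 12.6 to 551 ± 153 CPM), SERPINA3 (3.32 ± 0.58) and TIMP1, a metalloproteinase inhibitor (2.24 ± 0.24). SERPINA3 was barely detected in DMSO siNT, at 0.0289 ± 0.0199 CPM (SD), and stayed low in senescence, at 0.307 ± 0.124 CPM (SD). The size of its fold change, and so its place among the largest rises, is therefore uncertain. PIM1, a kinase, fell by 1.26 ± 0.27. After knockdown 2 rose and 5 fell, beside 10.4% and 13.8% of all genes, with a median of 0.045 against -0.024 over all genes. CEBPD, a transcription factor, rose by 1.00 ± 0.21 (adjusted p = 0.00211) and VEGFA, an angiogenic growth factor, by 0.47 ± 0.12 (adjusted p = 0.00717). A2M, a protease inhibitor, fell by 2.28 ± 0.36 (adjusted p = 0.000277), and MYC and CCND1, drivers of proliferation, fell by 0.49 ± 0.094 and 0.44 ± 0.11. The other 10, among them the hepatocyte acute-phase genes CRP, HP and FGB, had at most 56 counts each over the 17 libraries and were not tested.

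The genes nearest to 4 members in pattern, by the root mean square difference of centred log2 CPM over the 17 libraries, are given as a description. POU2F2, a transcription factor (0.51), NRG1, an EGF-family ligand (0.53), and MAST1 (0.54) were nearest to IL6. Their log2 fold changes were 3.79, 3.44 and 3.13 in senescence and 0.46, 0.53 and 0.90 after knockdown, beside 3.44 and 1.40 for IL6. TNFAIP2 (0.28), the long noncoding RNA CEROX1 (0.29) and THEMIS2 (0.29) were nearest to LIF, and RIPOR3 (0.30), NDNF (0.31) and GDNF, a neurotrophic factor (0.35), to IL11. The genes nearest to LIFR were DDR2, a collagen receptor (0.18), DZIP3 (0.19) and REV3L, a DNA polymerase subunit (0.20). DDR2 went from 225 to 140 and then 100.3 CPM in mean over the groups in order. All 17 libraries entered the choice of these genes, so their changes follow from it and are not tested.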

How the data were processed

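RNA from 17 libraries, enriched for poly(A) and sequenced as strand-marked read pairs, was analysed. Before depositing the tables the authors trimmed reads with Cutadapt 4.7, aligned them to GRCh38 with HISAT2 2.2.1 and counted genes and repeat loci by strand with TElocal, which shares reads with several positions by maximum likelihood. The deposited values are therefore expected counts, written as whole numbers and not normalised. Genes are stated as Ensembl release 100, but all 62700 identifiers of GENCODE 44 occur, which was used for symbols, coordinates and exon lengths. Genes and repeat subfamilies were fitted together with edgeR 4.0.16 (R 4.3.3): filterByExpr on the 3 groups (19473 genes and 1026 subfamilies), TMM factors (0.949 to 1.08) and the quasi-likelihood test with all groups in 1 design, with p-values adjusted over genes. DESeq2 1.42.0 was an alternative. Intronic repeat levels used log2(CPM + 0.01) with CPM of the library total. On simulated counts for 4OHT siSMARCA4 against 4OHT siNT (19166 genes), 30% of changes of 0.5, 85.7% of 1 and 91.8% of 2 on the log2 scale were recovered. The simulation held only 49 or 50 changed genes of each size, where the data gave 4703 called genes. The adjusted threshold there was thus a stricter cut on the unadjusted p than the members faced. Each member had at least 170 counts per library, and counting error was not set against library spread for single members. The members, the gene lists and the naming rule (all members, the 3 largest called rises and falls per list, the 3 nearest genes for IL6, LIF, IL11 and LIFR) were chosen with earlier results of these data known, and a gene that the naming rule selects is not reported here. Replicate pairs of a group differed by more than sampling noise. The replicate tags were not taken to pair the libraries, which needed a correlation of deviations over 0.1 in every same-tag pair across groups: 8 of 16 had one (median 0.079), against 25 of 80 pairs with different tags (median -0.030).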

Additional observations from a re-analysis of the deposited data

Results flagged for a closer look

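Of 30 sets of libraries (10 genes in 3 groups), 2 held a library far from the others by Dixon's ratio of gap to range, and chance alone gives about 1 in 20. IL11 in 4OHT siNT was at 220 CPM in library 4-2VM (gap 0.729 of the range on the log2 scale), and IL6ST in DMSO siNT was at 301 CPM in library 4-3VM (gap 0.939).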

How the results depend on the processing

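In 4OHT siSMARCA4 against 4OHT siNT the count of called members went from 4 to 2, and that of called genes from 4703 to 1343, with the sparse repeats as a covariate, and to 2 members and 1198 genes with siRNA number 4 alone, against 3 members and 4479 genes with number 2 alone, also 3 libraries against 3. The interaction between siRNA numbers called 207 genes, and from 10 to 844 when single libraries were left out. By intronic repeat counts, 1 member was called in senescence but 2 on the share of all intronic repeat counts, and 1 to 2 with single libraries left out. After knockdown 2 to 4 were called with single libraries left out, and against DMSO siNT 1 to 4. The following uncalled values after knockdown changed sign: LIF (0.062 with the sparse repeats as a covariate, 0.051 with siRNA number 2), IL11 (-0.13 with the replicate block by tag, -0.32 with VM libraries alone, -0.14 with siRNA number 4, and -0.084 to 0.26 without single libraries) and CLCF1 (-0.025 with the replicate block by digit, -0.037 to 0.042 without single libraries). The interaction of IL6 was 0.0021 with RLE size factors and -0.45 to 0.20 without single libraries, and that of IL6R -0.53 to 0.011. With the tag as a replicate block, 8, 3 and 9 members were called in the 3 comparisons (LIFR lost in senescence and IL6ST after knockdown), and with the digit 9, 4 and 9. Over all genes, 9429, 4444 and 9150 were called with the tag and 10520, 4243 and 10315 with the digit. The main fit called 10601, 4703 and 10725 genes. Where the cause of these changes is not given, the cause was not tested. IL6 and IL6R kept their calls after knockdown in all 25 alternatives. Depth limits the intronic repeat counts of IL6R and LIFR, of which the senescent groups held 19 to 84 each.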
